A study of Homo sapiens with 2 samples.

Results

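The miR-148/miR-152 family was followed in small RNAs recovered on a resin that carried the long non-coding RNA MACC1-AS1. Its members were chosen by name, and all 5 names (hsa-miR-148a-3p, hsa-miR-148a-5p, hsa-miR-148b-3p, hsa-miR-148b-5p and hsa-miR-152-3p, printed below without the prefix for human) were present among the 2588 mature miRNA names of the deposited counts. Lysate of MDA231 (MDA-MB-231), a breast cancer line of the triple-negative, basal kind, was incubated for 5 h at 4 °C with amylose resin, and bound material was released with 10 mmol/L maltose and sequenced. The bait library had the RNA substrate lncRNA MACC1-AS1-MS2, an in vitro transcript held on the resin by a fusion of maltose-binding protein and the MS2 coat protein. For the no-bait library the labels give the RNA substrate as none. The parental line, lysis and elution are described alike for both. The control therefore separates the tagged transcript from resin without RNA, but not MACC1-AS1 from its MS2 hairpins or from any other RNA. With 1 library in each group nothing could be checked against replicates, no test between the conditions was possible, and every interval below is a 95% interval that covers counting error only.

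Members of this family are made from 3 hairpins, and each hairpin can give a miRNA from its 5′ arm (5p) and its 3′ arm (3p). The 3p arms are the guide strands known to be loaded into Argonaute. Their targets include DNMT1, the enzyme that maintains DNA methylation, and HLA-G, an immune-inhibitory molecule of the HLA class I group. miR-148a-3p is also known from liver lipid metabolism, and lower levels of family members have been reported in several carcinomas, those of the breast among them.

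The 3 guide strands share a seed, the bases 2 to 8 from the 5′ end that lead target pairing, and differ behind it. They are shown because the libraries separate members that have the same seed. The 5p arm of miR-148b is added to show that the opposite arm has a different seed. Sequences are RefSeq's for GRCh38.p14, from a table that matched 4 of the 5 members (not miR-148a-5p), written 5′ to 3′ with the seed in capitals.
miR-148a-3p: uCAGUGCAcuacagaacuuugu
miR-148b-3p: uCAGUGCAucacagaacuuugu
miR-152-3p: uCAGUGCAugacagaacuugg
miR-148b-5p: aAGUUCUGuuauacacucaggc

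Counted from the 5′ end, miR-148a-3p and miR-148b-3p are identical at 20 of 22 bases and differ by C9U and U10C, both directly behind the seed. From miR-148a-3p to miR-152-3p the substitutions are C9U, U10G and U20G over 21 compared bases, and from miR-148b-3p to miR-152-3p they are C10G and U20G. Of 2281 names in the count table with a RefSeq sequence, these 3 alone had the seed CAGUGCA, and no further name shared its bases 2 to 7. How the counting divided reads that match several miRNAs was not given in the sources used here, so the split between such near-identical members is uncertain.

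The 3 hairpins lie on separate chromosomes. In GENCODE version 29 (GRCh38) MIR148A is on chromosome 7 from 25949919 to 25949986 on the minus strand, where it overlaps no other gene and the nearest protein-coding gene, NFE2L3, is 202254 bp away. It is on the same chromosome as the gene of the bait, MACC1-AS1, at a gap of 5.80 Mb. MIR148B is on the plus strand of chromosome 12, from 54337216 to 54337314. It lies within COPZ1, which encodes a coat protein subunit of Golgi transport vesicles, and overlaps no exon. A further annotated gene on the same strand, AC078778.2, also overlaps MIR148B. MIR152 is on chromosome 17 from 48037161 to 48037247 on the minus strand, within COPZ2, the paralog of COPZ1, also outside any exon. These positions are the annotation's own, since the deposited counts carry miRNA names and no coordinates.

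The bait library held 1047269 miRNA counts and the no-bait library 269716, a 3.88-fold difference in depth. The floor of 3 counts set against a count of 0 is 2.86 RPM (counts scaled to the library's total of miRNA counts) with bait and 11.1 RPM without, and the exact interval of a count of 0 reaches 3.52 and 13.7 RPM. As a check of the cell line, the 6 miRNAs of the miR-200 family and miR-205, which mark epithelial cells, summed to 181 RPM with bait and 111 RPM without, with 2 and 3 of them at 0 counts. miR-221-3p and miR-222-3p, typical of basal breast lines, summed to 13623 and 44603 RPM. They went different ways, miR-221-3p with 5596 RPM with bait and 4405 without, and miR-222-3p with 8028 and 40198 RPM.

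The family was dominated by miR-148a-3p in both libraries. It had 6802 counts with bait, or 6495 RPM (interval 6342 to 6651), and 1383 counts without, or 5128 RPM (4862 to 5404), and ranked 18 among all names in each library. The intervals did not overlap, yet the ratio of bait to no bait was 1.27 (1.20 to 1.34), a difference well short of 2-fold. miR-148b-3p, the COPZ1 member, had 1080 counts with bait and 115 without. Its level was 1031 RPM (971 to 1095) against 426 RPM (352 to 512), and its rank 46 against 70. miR-152-3p, the COPZ2 member, had 485 and 66 counts, or 463 RPM (423 to 506) against 245 RPM (189 to 311), at ranks 68 and 89. All 3 guide strands were thus higher in the bait library by more than counting error, and their order was the same in both, with each neighbour separated from the next beyond its interval. Differences in level between miRNAs also carry the ligation and amplification preferences of each sequence.

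**Figure D1:**
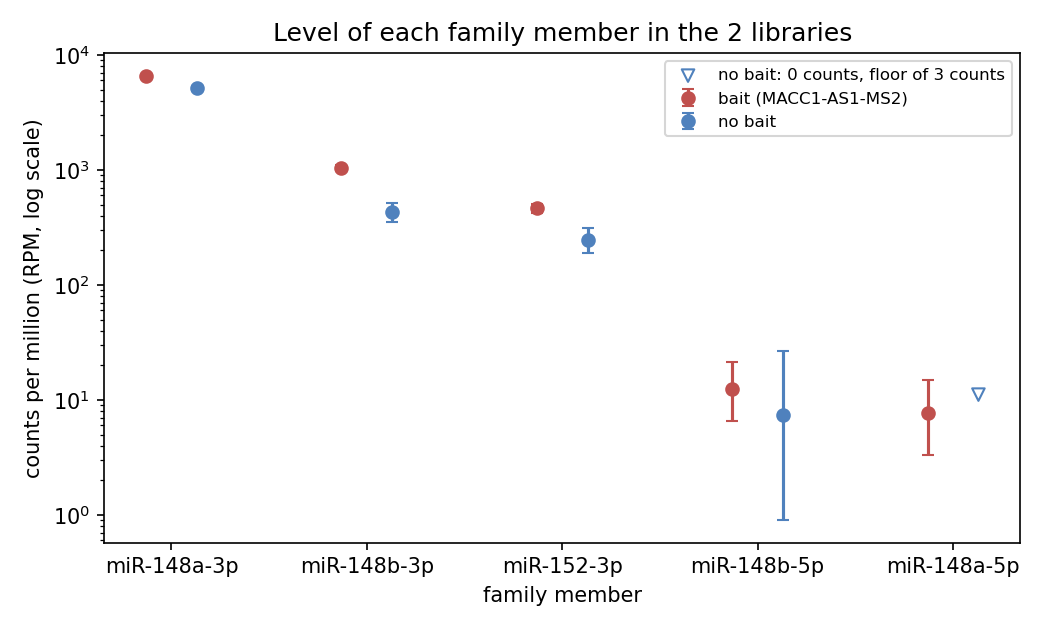
Level of each of the 5 members in RPM (log axis) in the bait and no-bait libraries, 1 library each, with exact 95% intervals for counting error. The open triangle is the floor of 3 counts, 11.1 RPM, for miR-148a-5p, which had 0 counts without bait. The 3 guide strands lie far above the 5p arms, from 245 to 6495 RPM, and each is higher with bait.

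Only miR-148b-3p passed the rule for a higher miRNA, which asked for at least 30 summed counts, a ratio of at least 2 and an interval excluding 1 (for a lower miRNA, a ratio of at most 0.5). It rose 2.42-fold (1.99 to 2.96), so its lower bound lay at the threshold. The ratio of miR-152-3p was 1.89 (1.46 to 2.49), just short of the threshold and with an interval that spans it. Of the 5 members 3 had enough counts to be tested, 1 was higher and 0 were lower. Over all 231 tested miRNAs 39.4% were higher and 26.8% lower by the same rule, so the share of members called is close to the background and marks nothing out about the family. The bait library was 3.88-fold deeper, so the minimum of 30 summed counts was met at a lower RPM with bait. This tilts the tested miRNAs toward higher ones. With a minimum of 10 counts the shares were 29.2% and 24.9%. The median log2 ratio of the 3 tested members was 0.92, beside 0.55 over all tested miRNAs, whose middle 50% ran from -1.09 to 1.86.

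All 3 members lay inside that middle range. Of the 231 tested miRNAs 45.0% had a lower ratio than miR-148a-3p, 55.8% a lower ratio than miR-152-3p and 61.5% a lower ratio than miR-148b-3p. Relative to the median of all tested miRNAs, which no scaling by a common factor changes, miR-148a-3p stood at -0.20 on the log2 scale, miR-152-3p at 0.37 and miR-148b-3p at 0.73. miR-148a-3p was therefore above its no-bait level when libraries are scaled by their totals, and slightly below the median of the tested miRNAs. That median and the percentages above depend on the count minimum, which tilts the tested miRNAs toward higher ones. They were not computed again with another minimum, so the place of miR-148a-3p below the median holds for this tested set only.

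**Figure D2:**
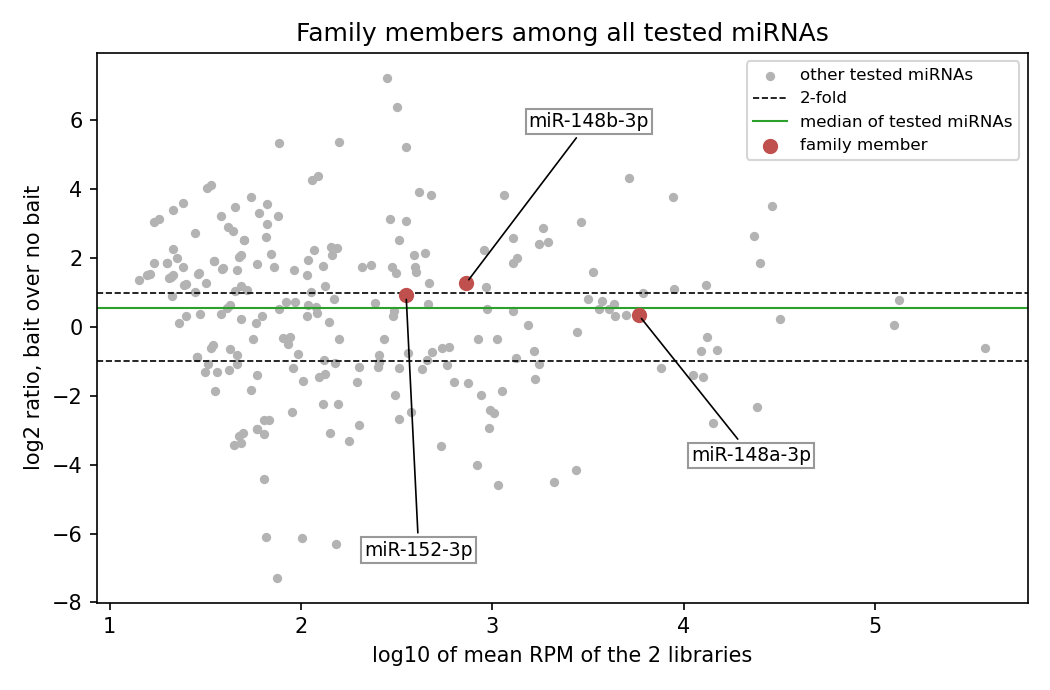
Log2 ratio of bait over no bait against the log10 of the mean RPM of the 2 libraries, for the 231 tested miRNAs, with the 3 tested family members in red. Dashed lines mark 2-fold and the green line the median of 0.55. The members lie between 0.34 and 1.27, within the bulk of the points.

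Counted together, the 3 guide strands took 0.799% of all counts with bait (0.782% to 0.816%) and 0.580% without (0.552% to 0.609%). If each shared read was counted once, their summed ratio does not depend on how such reads were split within the family. That ratio was 1.38 (1.31 to 1.46) and passed neither rule. It follows miR-148a-3p, which holds most of the sum. Without miR-148a-3p, the member with the lowest ratio, the counts of miR-148b-3p and miR-152-3p together gave 2.23 (1.91 to 2.61). Without miR-148b-3p, the member with the highest, miR-148a-3p and miR-152-3p together gave 1.30 (1.22 to 1.37). Both partial sums follow from the ratios of their members and, unlike the full sum, depend on the split of shared reads.

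The makeup of the family differed between the libraries, and this comparison needs no scaling between them. miR-148a-3p made up 81.3% of the guide strand counts with bait (80.4% to 82.1%) and 88.4% without (86.7% to 89.97%). miR-148b-3p took 12.9% (12.2% to 13.6%) against 7.35% (6.11% to 8.76%). miR-152-3p took 5.80% (5.31% to 6.32%) against 4.22% (3.28% to 5.34%). The intervals were apart for the first 2 members and touched for miR-152-3p.

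**Figure D3:**
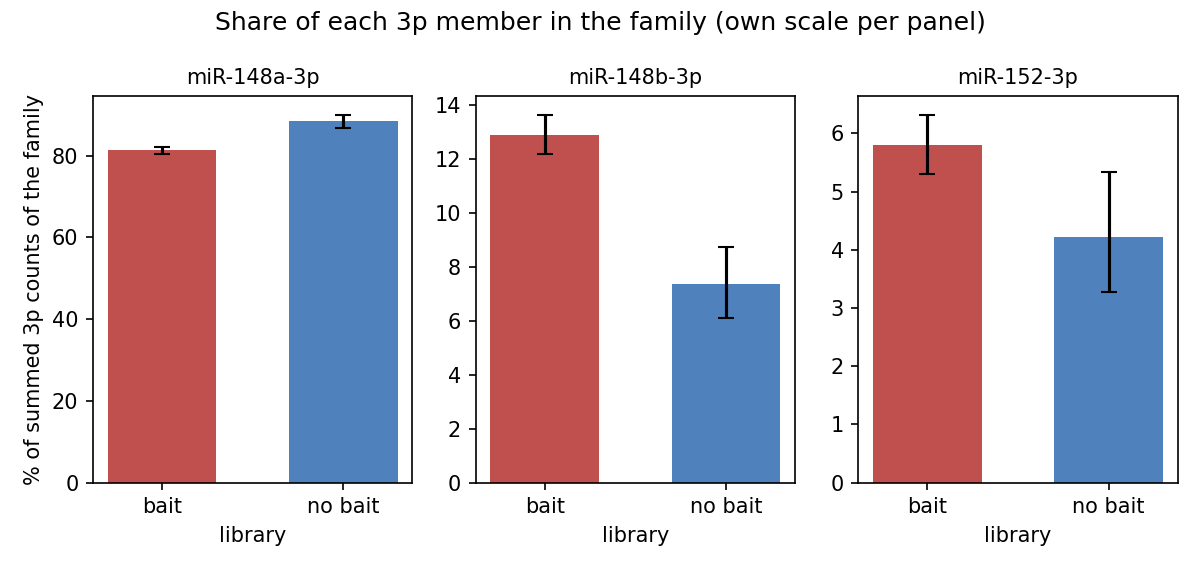
Share of each guide strand in the summed 3p counts of the family, in percent, for the bait and no-bait libraries, 1 library each, with exact 95% intervals. Each panel has its own scale from 0. The share of miR-148a-3p is smaller with bait (81.3% against 88.4%), and that of miR-148b-3p larger (12.9% against 7.35%).

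Set pair by pair, there were 12.03 counts of miR-148a-3p for each count of miR-148b-3p without bait and 6.30 with bait. The ratio of miR-148b-3p was thus 1.91 times that of miR-148a-3p (exact conditional interval 1.56 to 2.35). The ratio of miR-152-3p was 1.49 times that of miR-148a-3p (1.15 to 1.98). Between miR-148b-3p and miR-152-3p the quotient was 1.28 (0.912 to 1.78), an interval that includes 1 and does not exclude a difference of up to 1.78 times. Of the 3 pairs compared, the 2 with miR-148a-3p differed beyond counting error. Positions 9 and 10, directly behind the seed, both set miR-148b-3p and miR-152-3p apart from miR-148a-3p. The part of these bases, or of the division of shared reads, in the difference was not tested.

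A range of this size within a seed group was not unusual in these libraries. RefSeq gave a sequence for 203 of the 231 tested miRNAs. Among the 9 seed groups with at least 3 such members, the gap between the highest and lowest log2 ratio ran from 0.59 to 6.41, with a median of 1.17. Such a gap can only widen as members are added. It ran from 0.59 to 2.05 in groups of 3, the size of this family, and from 4.46 to 6.41 in groups of 4 to 9. Tested miRNAs without a sequence were left out, so a group can be incomplete and its gap too small. The gap was 0.93 in the miR-148/miR-152 family, the fourth smallest of the 9. Next to it stood the miR-99/miR-100 group at 0.92 and a miR-30 group at 1.17, which held only miR-30a-5p, miR-30c-5p and miR-30e-5p. miR-30b-5p and miR-30d-5p were tested, at log2 ratios of 1.90 and 1.22, but had no sequence here and were left out. Both lie below the lowest of these 3, 2.65, so the full miR-30 group has a wider gap. The median of 1.17 thus rests on an incomplete group. Scaled by totals, all 3 members had ratios above 1, as had 139 of the 231 tested miRNAs.

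The 5p arms, the passenger strands of these hairpins, were rare. miR-148b-5p had 13 counts with bait, or 12.4 RPM (6.61 to 21.2), and 2 without, or 7.42 RPM (0.898 to 26.8). Its ratio of 1.67 had an interval of 0.379 to 15.3, so no direction was detectable at this depth. miR-148a-5p had 8 counts with bait, or 7.64 RPM (3.30 to 15.1), and 0 without. At its bait share the shallower library would hold 2.06 counts, and its floor of 11.1 RPM lies above the bait level, so the 0 does not show a lower level and no fold is given. miR-152-5p, not a listed member but the other arm of the MIR152 hairpin, had 3 and 0 counts. Both 5p members fell below the minimum of 30 counts and entered no call.

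Nearly all counts of each hairpin came from its 3p arm in both libraries. The 3p arm made up 99.9% of the counts of the miR-148a hairpin with bait (99.8% to 99.9%) and all 1383 counts without, where the interval starts at 99.7%. For miR-148b it was 98.8% (97.97% to 99.4%) of 1093 counts with bait and 98.3% (93.96% to 99.8%) of 117 without. For miR-152 it was 99.4% (98.2% to 99.9%) of 488 counts and all 66 counts (from 94.6%). Over the 3 hairpins the 5p arms held 24 of 8391 counts with bait, 0.286% (0.183% to 0.425%), and 2 of 1566 without, 0.128% (0.0155% to 0.461%), which are not distinguishable. With bait, the 5p share of miR-148b, 1.19% (0.635% to 2.03%), was above that of miR-148a, 0.117% (0.0507% to 0.231%).

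The annotated MACC1-AS1 transcript, 639 nt long in GENCODE version 29, held no perfect match to the seed shared by the guide strands. The search covered TGCACTG, the complement of bases 2 to 8, and GCACTG within it, the complement of bases 2 to 7, on the transcript's own strand only, since the bait is single-stranded RNA. Among 25527 other GENCODE transcripts of 575 to 702 nt, 5.39% held the first and 19.4% the second. CAGAACT, the complement of the seed of miR-148b-5p, had 0 matches as well and occurred in 6.86% of those transcripts. The count of 0 says only that these letters are not in the annotated transcript. The sequence of the bait as made, with its MS2 hairpins, was not used here.

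In abundance pattern, the miRNAs most like miR-148a-3p were those with the nearest log2 ratio among the 51 others with at least 1000 summed counts, a likeness over 2 libraries only. They were miR-221-3p with a ratio of 1.27, miR-30a-3p with 1.26, miR-99b-5p with 1.17, miR-22-3p with 1.39 and miR-30e-3p with 1.43. The log2 distance from miR-148a-3p ran from 0.0042 for miR-221-3p to 0.18 for miR-30e-3p.

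Among other miRNAs recalled as regulators of DNA methyltransferases, the enzymes that include the family's target DNMT1, 4 of the 6 tested were higher with bait, 0 were lower and 2 passed neither rule. The higher share of all tested miRNAs was 39.4%. miR-29a-3p and miR-29b-3p, known to act on DNMT3A and DNMT3B, rose 5.999-fold (4.90 to 7.41) and 3.13-fold (1.74 to 6.20). miR-126-3p rose 3.31-fold (2.47 to 4.52), from 182 to 602 RPM, and miR-185-5p 2.87-fold (1.69 to 5.24), from 55.6 to 159 RPM. miR-101-3p had a ratio of 1.59 (1.28 to 1.99) and miR-143-3p one of 0.788 (0.612 to 1.02). miR-29c-3p with 4 and 1 counts and miR-342-3p with 10 and 2 were too rare to test. The median log2 ratio of the 6 was 1.58, beside 0.92 for the 3 tested family members and 0.55 for all tested miRNAs. The list was recalled, with some of its values already known.

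The place of the family against the 2-fold rule moved with the scaling of the libraries, which multiplies every ratio by the same factor. miR-148b-3p stayed higher by the rule in each scaling. It ranged from 2.21-fold (1.82 to 2.70) without the 5 most abundant miRNAs in the totals to 3.24-fold (2.67 to 3.96) with DESeq2 size factors. Its lower bound lay above 2 only with those factors and with edgeR TMM factors (2.22). miR-152-3p crossed the threshold with edgeR TMM factors, at 2.11 (1.63 to 2.77), and with DESeq2 size factors, at 2.54 (1.96 to 3.33), so 2 of 3 tested members were then higher. miR-148a-3p stayed between 1.16 and 1.70. The background moved too, to 41.6% higher with TMM and 49.4% with DESeq2 size factors.

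**Figure D4:**
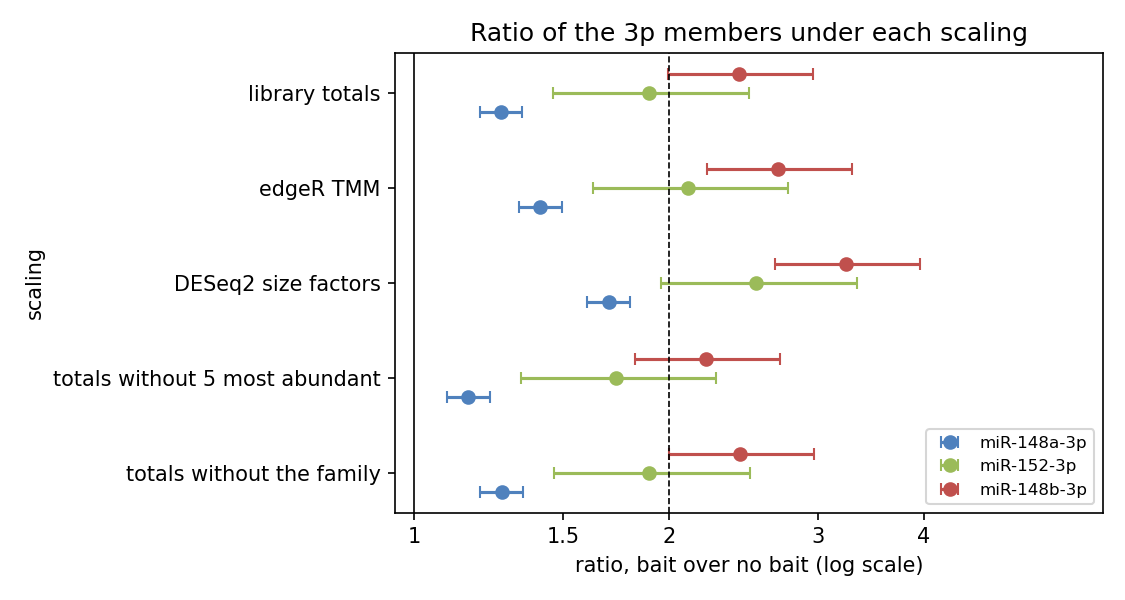
Ratio of bait over no bait (log axis) of the 3 guide strands under 5 scalings, with exact 95% intervals for counting error, 1 library a group. The dashed line marks 2-fold. miR-148b-3p lies beyond 2 in each, miR-148a-3p short of it in each, and miR-152-3p passes it with TMM and DESeq2 size factors. The whole interval of miR-148b-3p lies beyond 2 only with TMM and DESeq2 size factors, and that of miR-152-3p in none.

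In the authors' deposited table, miR-148b-3p had a log2 fold change of 1.27 with a p-value of 0.0366. In the authors' deposited table the p-values were 0.451 for miR-148a-3p, 0.122 for miR-152-3p and 0.633 for miR-148b-5p. The largest fold change of a member in the authors' deposited table was that of miR-148a-5p, a log2 value of 9.58 with a p-value of 0.0942. It comes from the replacement of 0 RPM by 0.01 RPM in that table, a rule that held for all 239 miRNAs seen with bait only, and it rests on 8 counts. The table does not name the test behind these p-values, which can only set 1 library against another.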

How the data were processed

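Small RNA libraries from 1 bait and 1 no-bait eluate were used. The authors deposited a whole-number count per mature miRNA name for each library. They also deposited RPM values, which equalled count over library total, rescaled to RPM, within 0.00994 RPM. BWA is named, per the submitters' processing notes, without a version. Trimming, miRNA reference, genome build and handling of shared reads were not given in the sources used here. The authors' deposited table adds a log2 fold change and a p-value per miRNA, and its 4 RPM columns were not used.

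Counts were scaled by library totals (1047269 and 269716). Ratios have exact conditional binomial intervals and shares exact Clopper-Pearson intervals, both at 95% (scipy 1.17.1). The calling script was tested on simulated data. edgeR 4.0.16 and DESeq2 1.42.0 gave alternative scaling factors only, as 1 library a group allows no test. Other alternatives were count minimums of 10, 100 and none, the deposited RPM, a bound beyond 2-fold, 0.5 counts added per arm, and shares over all 5 members. The members and lists were chosen with earlier results of these data known. miRNAs were named as members, as arms of the same hairpins, as sharing the seed, as the 5 nearest in ratio, or from the list on DNA methyltransferases. The count of seed groups was added later.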

Additional observations from a re-analysis of the deposited data

How the results depend on the processing

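No paired analysis was possible because each group held 1 library. For miR-152-3p the ratio of 1.89 became 2.11 with TMM factors and 2.54 with DESeq2 size factors, which raised the number of higher members from 1 to 2 in both. With an interval bound beyond 2-fold that number was 0, because the lower bound of miR-148b-3p was 1.99. Among the other 52 of 57 alternative values no ratio crossed 1, no call that could be made changed, shares stayed within the counting interval and the seed match count stayed at 0. The deposited RPM gave ratios without a call. The summed guide strand ratio ranged from 1.26 to 1.85. The share of higher among all called miRNAs was 59.5%, and 72.2% with DESeq2 size factors, which shift every log2 ratio by 0.42. TMM shifted them by 0.15 and totals without the 5 most abundant miRNAs by -0.13. Without a count filter 95 of 715 miRNAs were higher and 103 lower. The no-bait depth limits the 5p arms, where the floor of 3 counts is 11.1 RPM and the exact interval of 0 counts reaches 13.7 RPM.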
